A study of Saccharomyces cerevisiae with 16 samples.

Results

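Sulfate assimilation and methionine synthesis were followed through 33 genes of the wine yeast Saccharomyces cerevisiae: 24 enzymes, 4 transporters and 5 regulators. The genes were taken from a list of symbols and found on the arrays by their open reading frame names, 1 probe for each gene. All 33 were among the 6256 gene probes of the array, and all 33 were well above background on each of the 16 arrays. The arrays were hybridised with RNA of the industrial strain Lalvin EC1118 fermenting an artificial must at 22 °C in membrane reactors of 500 ml. A dialysis membrane divided each reactor. Behind it the mixed fermentations held the spoilage yeast Dekkera bruxellensis, strain ZIM 701, whereas nothing was inoculated there in the controls. S. cerevisiae was sampled at 22 h in exponential growth, at 92 h and 144 h in the early and the late part of stationary phase, and at 187 h in decline. The 8 groups are thus mixed at 22 h, mixed at 92 h, mixed at 144 h and mixed at 187 h, and control at the same 4 times, each with n = 2 arrays from duplicate fermentations. All groups shared the strain, the must, the temperature and the reactor. No strain carried a mutation or a transgene according to the labels.

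Yeast takes up sulfate and activates it with ATP, reduces it through sulfite to sulfide, and joins the sulfide to a carbon chain made from aspartate to give homocysteine, the precursor of methionine and, by transsulfuration, of cysteine. Methionine is turned into S-adenosylmethionine, the methyl donor of the cell, and the homocysteine left after methyl transfer is recycled. The genes of the pathway are known to be switched on by the activator Met4, which binds DNA with the help of Met28, Met31 and Met32 and is held in check by Met30, a subunit of a ubiquitin ligase, when sulfur compounds are plentiful. In wine making the pathway is known as the source of hydrogen sulfide.

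Levels are given as log2 of the background-corrected intensity relative to the 75th percentile of the same array, so that 0 is that percentile itself and a difference of 1 is a factor of 2. Levels of different genes cannot be set against each other, since each probe binds with its own strength. Differences carry the standard error (SE) of a limma fit, and a gene was called when its p-value, adjusted over 6184 probes by the Benjamini-Hochberg method, was under 0.05. The raw 75th percentile of the arrays lay between 1433 and 7386 intensity units, and between 95.4% and 98.0% of the probes were well above background. The 8 first replicates lay on 1 slide and the 8 second replicates on the other, with mixed and control arrays in different rows and each time in its own column, so kind and time cannot be told apart from place on the slide. Of 5 genes for growth (ribosomal proteins RPL3, RPL30 and RPS3, TEF1 and NSR1), 5 fell at 92 h against 22 h. Of 7 genes of stationary phase, 6 rose and SNZ1 fell. Over all probes 29.2% fell and 36.2% rose at that step. The growth genes also differed with kind. At 187 h 3 of the 5 were lower in mixed, where 4.46% of all probes were. Their median difference was -0.68, against -0.06 over all probes. On average over the 4 times 4 of the 5 were lower, where 5.37% of all probes were. Of the 7 stationary phase genes 3 were higher in mixed on average (HSP12 by 1.21, SPG4 by 0.77 and SPG1 by 0.49), where 3.22% of all probes were. The median over the 7 was 0.47, against -0.03 over all probes. The part of either list in the differences between mixed and control given here was not tested.

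**Figure D1:**
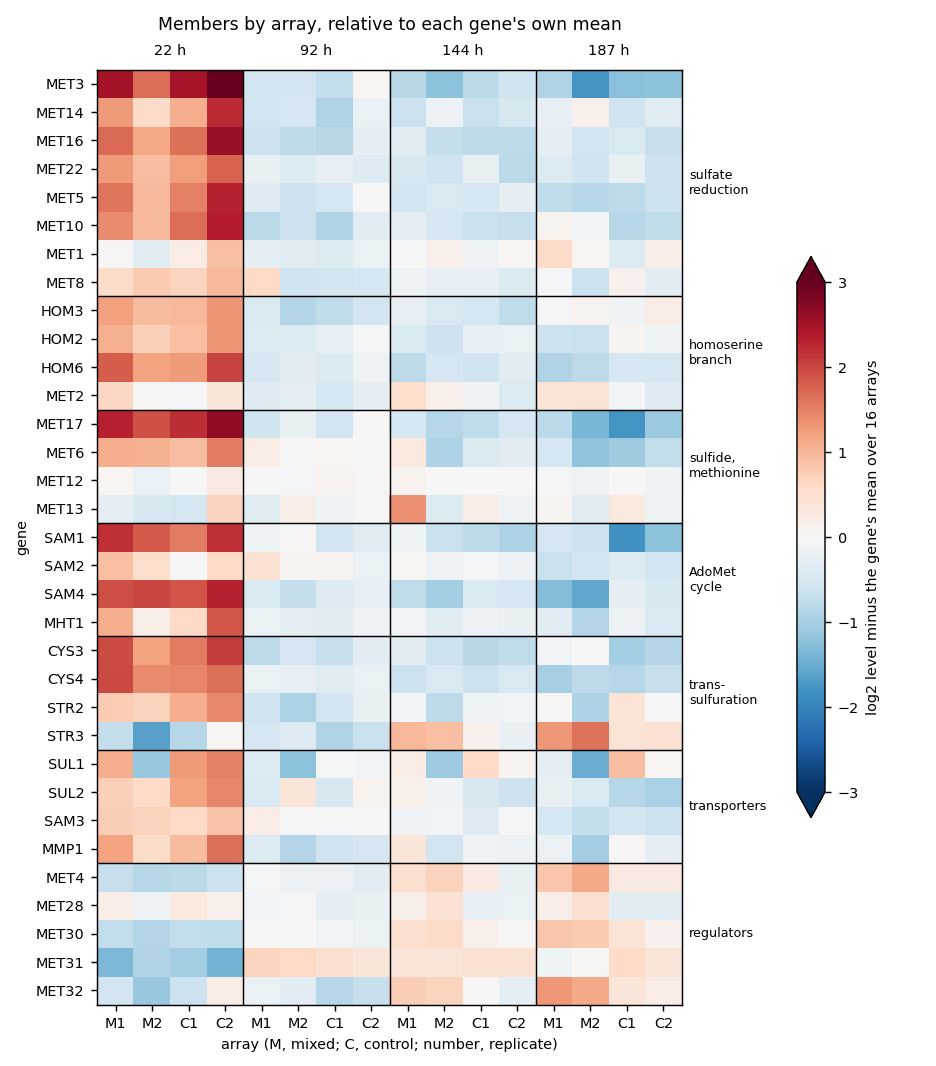
Heat map of the 33 genes (rows, grouped by role) on the 16 arrays (columns, ordered by time, with mixed to the left of control). Colour gives the log2 level minus the mean of that gene over the 16 arrays. Red fills the 22 h columns of most enzymes and transporters. The regulators other than MET28 are blue there, except MET32 on control replicate 2. Control replicate 2 of 22 h is the reddest column for the sulfate reduction genes.

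Most of the enzymes were higher in exponential growth than in stationary phase. At 92 h against 22 h, averaged over mixed and control fermentations, 25 of the 33 genes fell and 3 rose, against a background of 29.2% of all probes lower and 36.2% higher. Among the enzymes 21 of 24 fell and 0 rose, with a median difference of -1.70, whereas the median over all probes was 0.07. Among the 5 regulators, MET31, MET30 and MET4 rose and MET28 fell, with a median difference of 0.57. Of the 4 transporters 3 fell, with a median of -1.12.

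All 8 genes of sulfate activation and reduction fell, with a median of -1.91. MET3 encodes ATP sulfurylase, which activates sulfate. Its levels at 92 h were -1.88 and -1.89 on the mixed arrays and -2.08 and -1.28 on the control arrays, against 1.16 and 0.34 in mixed and 1.13 and 2.45 in control at 22 h. Every 92 h array lay below every 22 h array, and MET3 fell by 3.05 ± 0.31 (SE, adjusted p = 5.32e-06, limma), or 8.31-fold. The next steps fell as well. MET14, the kinase that phosphorylates the activated sulfate, fell by 1.84, and MET16, the reductase that releases sulfite, fell by 2.42. The sulfite reductase subunits MET10 and MET5 fell by 2.26 and 1.98. MET22, a phosphatase that removes the nucleotide by-product of the reduction, fell by 1.62. The changes were smaller for the genes of siroheme, the cofactor of sulfite reductase: MET8 fell by 1.02 and MET1 by 0.52 (adjusted p = 0.0319).

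The 4 genes that carry aspartate to O-acetylhomoserine, the acceptor of sulfide, also fell, with a median of -1.54. HOM6, homoserine dehydrogenase, fell by 1.94, HOM3, aspartate kinase, by 1.78, and HOM2, aspartate semialdehyde dehydrogenase, by 1.29. MET2, which adds the acetyl group to homoserine, fell by 0.63.

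MET17 encodes the sulfhydrylase that joins sulfide to O-acetylhomoserine. It gave 1.74 and 2.11 on the mixed and 1.76 and 2.36 on the control arrays of 92 h, against 4.67 and 4.25 in mixed and 4.56 and 5.0 in control at 22 h. The times did not overlap, and MET17 fell by 2.63 ± 0.21 (adjusted p = 1.04e-06), or 6.19-fold. MET6, the methionine synthase, fell by 1.08. The reductases that make its methyl folate substrate, MET12 and MET13, differed by -0.03 and 0.07 and did not pass. MET13 was also uneven between duplicates, with 1.51 and -0.29 on the mixed arrays of 144 h.

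In the S-adenosylmethionine cycle all 4 genes fell. SAM4 encodes a methyltransferase that makes methionine from homocysteine with S-adenosylmethionine as donor. It had levels of -0.83 and -1.10 in mixed and -0.76 and -0.62 in control at 92 h, against 1.55 and 1.63 in mixed and 1.50 and 1.92 in control at 22 h. The 8 arrays of the 2 times were far apart and close within each time, and SAM4 fell by 2.48 ± 0.12 (adjusted p = 2.75e-08). MHT1, the related enzyme that uses S-methylmethionine, fell by 1.17. The S-adenosylmethionine synthetases SAM1 and SAM2 are near copies of each other, so signal shared between their probes cannot be told apart. The SAM1 probe fell by 2.19 and the SAM2 probe by 0.40 (adjusted p = 0.0353).

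Of the transsulfuration genes, CYS3 (cystathionine gamma-lyase, which makes cysteine) fell by 2.29 and CYS4 (cystathionine beta-synthase, the step before it) by 1.88. STR2, cystathionine gamma-synthase of the reverse route, fell by 1.57. STR3, the cystathionine beta-lyase that completes the reverse route to homocysteine, did not pass, with a difference of 0.18 ± 0.22.

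Among the transporters, MMP1 (S-methylmethionine permease) fell by 1.68, SUL2 (sulfate permease) by 1.11 and SAM3 (S-adenosylmethionine permease) by 0.67. SUL1, the other sulfate permease, was the dimmest of the 33 probes, and its difference of -1.13 ± 0.47 missed the threshold (adjusted p = 0.0530). Its duplicates in mixed fermentations were far apart, with -3.78 and -6.00 at 22 h. MMP1 and MHT1 are neighbouring genes, as are SAM3 and SAM4, and both members of each pair fell.

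**Figure D2:**
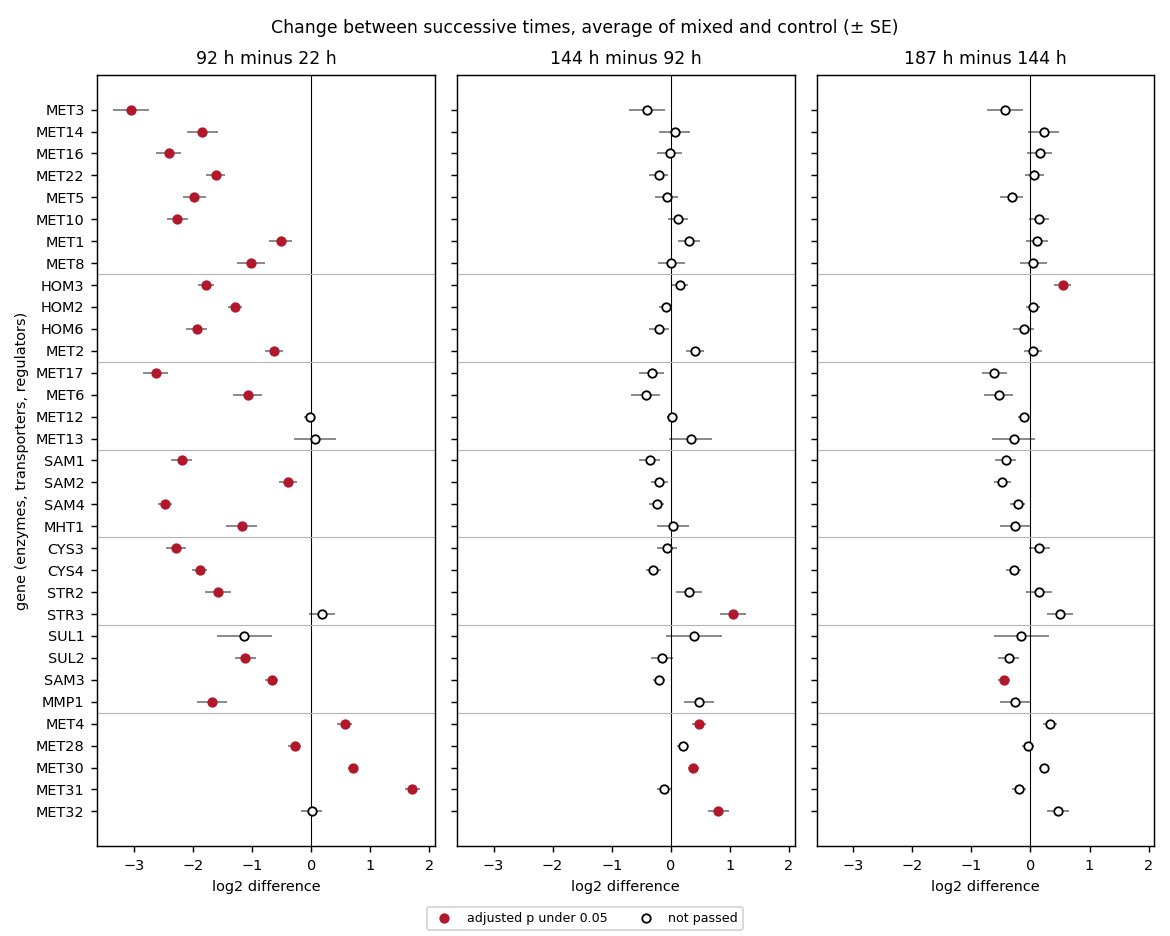
Log2 difference between successive sampling times for each of the 33 genes, as the average of mixed and control (points, with SE as bars), on a common axis. Filled red points passed an adjusted p of 0.05. At 92 h against 22 h most enzymes lie between -0.40 and -3.05, while MET31, MET30 and MET4 lie at 1.72, 0.71 and 0.57; at the later steps most points lie near 0.

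Among the regulators, MET31, MET30 and MET4 took another course than most enzymes. They rose, as did 36.2% of all probes. MET31 encodes a zinc finger protein that guides Met4 to DNA. Its levels at 92 h were -1.12 and -1.18 in mixed and -1.30 and -1.42 in control, against -3.15 and -2.70 in mixed and -2.82 and -3.21 in control at 22 h. All 92 h arrays exceeded all 22 h arrays, and MET31 rose by 1.72 ± 0.12 (adjusted p = 3.55e-07), or 3.28-fold. MET30, the inhibitor of Met4, had levels of 1.19 and 1.18 in mixed and 1.10 and 0.97 in control at 92 h, against 0.45 and 0.31 in mixed and 0.45 and 0.41 in control at 22 h. It rose by 0.71 ± 0.09 (adjusted p = 2.76e-05), and its times did not overlap. MET4, the activator, stood at -0.67 and -0.80 in mixed and -0.81 and -0.98 in control at 92 h, against -1.33 and -1.50 in mixed and -1.44 and -1.28 in control at 22 h, a rise of 0.57 ± 0.12 (adjusted p = 0.00156). MET28, a cofactor of Met4, fell by 0.28 (adjusted p = 0.0372). MET32, a relative of MET31, differed by 0.01, the average of 0.59 in mixed and -0.58 in control. Its control duplicates of 22 h were far apart, with a standard deviation of 0.61.

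These directions depend on the scale for some of the regulators. When the arrays were scaled to 7 spike-in probes, the median of all probes at 92 h against 22 h was -1.09 in place of 0.07, and MET30 and MET4 then stood at -0.45 and -0.59, while MET31 kept a positive difference of 0.55 that did not pass. On that scale 30 of the 33 genes fell and 0 rose, where 70.8% of all probes were called lower. Relative to the median of all probes, a quantity that scaling by 1 constant per array leaves as it is, the enzymes had a median of -1.77 and the regulators one of 0.49. The median of the enzymes lay between -1.63 and -2.86 over the scalings tried, and was negative in each. The median of the 5 regulators did not keep its sign. With spike-in scaling it was that of MET4, -0.59, in place of 0.57.

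Both kinds of fermentation took part in the first step. Within the mixed fermentations 21 of 24 enzymes were lower at 92 h than at 22 h, with a median of -1.47, and within the control fermentations 24 of 24 were, with a median of -1.82. The regulators had medians of 0.67 in mixed, where 4 of 5 were higher at 92 h, and 0.46 in control, where 3 of 5 were. No step differed between the kinds by the test of the difference: when the change over time was compared between mixed and control by an F test, 0 of the 33 genes and 0% of all probes were called, and 10 of the 33 genes had an unadjusted p under 0.05, against 441 of 6184 probes. All 5 regulators were among these 10, beside MET10, STR3, SAM4, SUL2 and CYS3. The lowest adjusted p among them was 0.599.

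**Figure D3:**
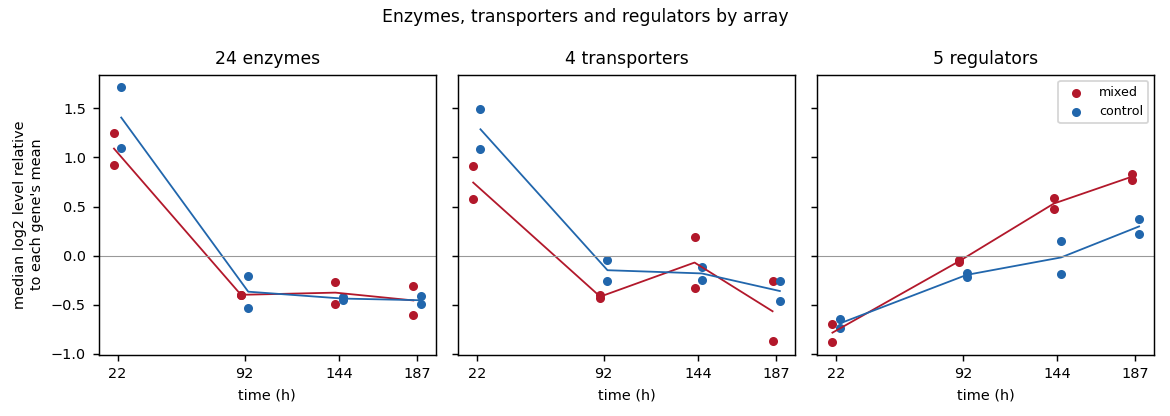
Median log2 level of the 24 enzymes, the 4 transporters and the 5 regulators on each array (points) against time in hours, after the mean of each gene over the 16 arrays was subtracted; lines join the means of the duplicates. Mixed is red and control blue. The enzymes stand between 0.93 and 1.71 at 22 h and at or below -0.21 from 92 h on. On this scale the median of the regulators is lowest at 22 h. The mixed arrays of 187 h stand at 0.83 and 0.78, against 0.37 and 0.22 in control.

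After 92 h few enzymes were called, and the regulators called between 92 h and 144 h all rose: MET30 and MET4 for a second step, and MET32 for the first time. No regulator passed between 144 h and 187 h. At 144 h against 92 h, 4 of the 33 genes rose and 0 fell, where 6.34% of all probes were higher and 9.04% lower. They were STR3 and the regulators MET32, MET30 and MET4. STR3 had levels of 0.38 and 0.29 in mixed and -0.48 and -0.83 in control at 144 h, against -1.11 and -0.98 in mixed and -1.50 and -1.27 in control at 92 h. Every later array was the higher, and STR3 rose by 1.06 ± 0.22 (adjusted p = 0.0115). MET32 reached -0.82 and -0.89 in mixed and -1.52 and -1.81 in control at 144 h, against -1.74 and -1.87 in mixed and -2.41 and -2.24 in control at 92 h. In each kind its later arrays lay above the earlier ones, and it rose by 0.81 ± 0.18 (adjusted p = 0.0146). MET4 rose by 0.48 ± 0.12 (adjusted p = 0.0232) and MET30 by 0.38 ± 0.09 (adjusted p = 0.0162).

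The median of the enzymes at this step was -0.04, close to the -0.06 of all probes, and that of the regulators was 0.38. The count of 4 fell to 0 with spike-in scaling, where the median of all probes was -0.35, and to 0 without the first control array of 144 h. It was 1 without the second mixed or the second control array of 92 h.

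At 187 h against 144 h, 1 gene rose and 1 fell, where 5.81% of all probes were higher and 5.51% lower. HOM3, aspartate kinase, had levels of 1.04 and 1.20 in mixed and 0.98 and 1.32 in control at 187 h, against 0.85 and 0.63 in mixed and 0.56 and 0.33 in control at 144 h. It rose by 0.54 ± 0.14 (adjusted p = 0.0351), and its later arrays lay above the earlier ones. SAM3, the S-adenosylmethionine permease, gave 1.36 and 1.18 in mixed and 1.34 and 1.24 in control at 187 h, against 1.78 and 1.81 in mixed and 1.50 and 1.84 in control at 144 h. It fell by 0.45 ± 0.10 (adjusted p = 0.0248), again with no overlap between the times. MET17 and SAM2 differed by -0.61 and -0.47 and did not pass (adjusted p = 0.0815 and 0.0629). Both calls at this step were lost with spike-in scaling, where the median of all probes was -0.32, and when only the arrays of 144 h and 187 h were fitted. The count was also 0 without the first mixed or the second control array of 144 h, without the second mixed array of 187 h or without either control array of 187 h. Neither HOM3 nor SAM3 held without the second mixed array of 144 h, and HOM3 was lost without either control array of 92 h. With 1 array left out the difference of HOM3 lay between 0.46 and 0.63. That of SAM3 lay between -0.53 and -0.37. With quantile normalization 1 gene rose and 2 fell, and with normexp 2 rose and 2 fell.

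The mixed fermentations were then set against the control fermentations at each time. At 22 h none of the 33 genes was called by limma, nor was any other probe (0%), while 8 of the 33 had an unadjusted p under 0.05, against 390 of 6184 probes. The difference was negative in 28 of the 33 genes and in 3367 of the 6184 probes. With spike-in scaling it was negative in 12 of the 33, where the median of all probes was 0.51 in place of -0.02. The 8 genes of sulfate reduction had a median of -0.70 (-0.16 with spike-in scaling), but this came from 1 slide: slide 1 gave a median of 0.03 and slide 2 one of -1.36. MET3 stood at 1.16 and 0.34 on the mixed arrays and at 1.13 and 2.45 on the control arrays, so slide 1 gave a difference of 0.03 and slide 2 one of -2.11. MET14 showed the same split, with 0.18 and -1.66, and SUL1 gave -0.20 and -2.65.

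The split at 22 h lay in the duplicates of both kinds. Replicate 2 was below replicate 1 in 30 of the 33 genes in mixed and above it in 30 of the 33 in control. Over all probes replicate 2 was above replicate 1 in 53.5% of mixed and 56.0% of control values. These shares do not show whether single probes shifted in opposite ways. Over all probes tested, deviations of same-numbered mixed and control arrays correlated at -0.47 at 22 h. Opposite shifts were thus not confined to the 33 genes. The median absolute difference between duplicates over the 33 genes was 0.37 in mixed and 0.52 in control at 22 h, against 0.20 and 0.21 over all probes. Later the spread of the 33 genes was smaller, between 0.17 and 0.24.

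At 92 h no difference between the kinds was called by limma: 0 of the 33 genes passed, with a background of 0.0162%, and 0 had an unadjusted p under 0.05. The medians were -0.01 for the enzymes and 0.18 for the regulators, and the largest difference in size was the -0.75 ± 0.67 of SUL1. All 5 regulators had a positive difference on both slides, with means of the slides between 0.15 and 0.52, and none passed.

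At 144 h again 0 of the 33 genes were called by limma, as were 0% of all probes, while 8 of the 33 had an unadjusted p under 0.05, against 568 of 6184 probes. These 8 were 4 of the 5 regulators, STR3, MET2, SAM4 and SUL2. The regulators MET32, MET4, MET28 and MET30 had differences of 0.81, 0.56, 0.53 and 0.45, positive on both slides, and MET31 one of -0.07. STR3 had a difference of 0.99 ± 0.31 (adjusted p = 0.384), and its mixed arrays lay above its control arrays.

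**Figure D4:**
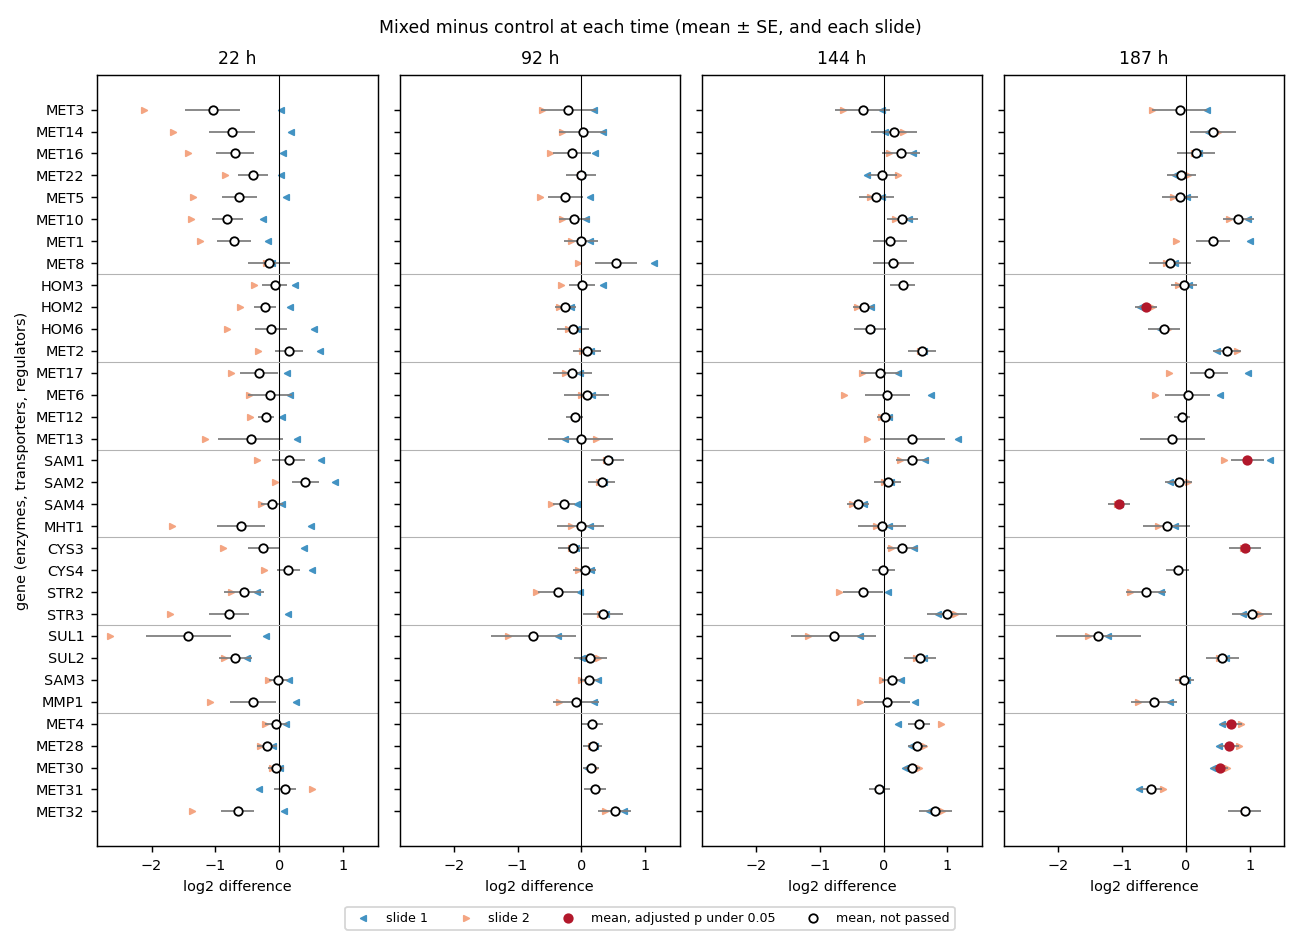
Log2 difference of mixed minus control for each of the 33 genes at the 4 times (circles, with SE as bars), with the differences within slide 1 as blue and within slide 2 as orange triangles. Filled red circles passed an adjusted p of 0.05. At 22 h the triangles of the sulfate reduction genes are far apart, and at 187 h 7 genes are filled: MET4, MET28, MET30, SAM1 and CYS3 to the right, SAM4 and HOM2 to the left.

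In decline, at 187 h, 5 of the 33 genes were higher and 2 were lower in mixed than in control fermentations, where 2.81% of all probes were higher and 4.46% lower. The regulators MET4, MET28 and MET30 and the enzymes SAM1 and CYS3 were higher, and the enzymes SAM4 and HOM2 were lower. The split of higher and lower calls was 6 and 1 when arrays were scaled to their medians, 7 and 1 in the deposited table and 1 and 1 after normexp background correction. The share of all probes called in these other fits is not given here. The median over the 5 regulators was 0.68, over the 24 enzymes -0.06 and over all probes -0.06. The regulator median was positive with each scaling tried, from 0.55 to 0.76.

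MET4 had levels of 0.20 and 0.51 in mixed, against -0.36 and -0.35 in control at 187 h. The mixed arrays were the higher on both slides, and the difference was 0.71 ± 0.17 (adjusted p = 0.0377), with 0.56 and 0.86 within the slides. At 144 h MET4 gave -0.16 and 0.05 in mixed and -0.38 and -0.85 in control. Its levels in mixed at 22 h, 92 h, 144 h and 187 h averaged -1.41, -0.74, -0.06 and 0.36, and in control -1.36, -0.90, -0.61 and -0.36.

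MET28 gave 1.80 and 2.10 in mixed, against 1.28 and 1.26 in control at 187 h, a difference of 0.68 ± 0.15 (adjusted p = 0.0336; 0.51 and 0.84 within the slides). Its control arrays were close together and below both mixed arrays. At 144 h MET28 stood at 1.78 and 2.04 in mixed and 1.35 and 1.42 in control, at 92 h at 1.52 and 1.54 in mixed and 1.31 and 1.39 in control, and at 22 h at 1.79 and 1.45 in mixed and 1.89 and 1.75 in control. The kinds overlapped only at 22 h among these times.

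MET30 had 2.02 and 1.96 in mixed, against 1.59 and 1.32 in control at 187 h. The difference was 0.53 ± 0.12 (adjusted p = 0.0370; 0.43 and 0.64 within the slides). At 144 h MET30 gave 1.67 and 1.77 in mixed and 1.33 and 1.21 in control. Both mixed arrays exceeded both control arrays at these 2 times.

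The remaining regulators did not pass. MET32 had -0.25 and -0.41 in mixed, against -1.18 and -1.32 in control at 187 h, a difference of 0.92 ± 0.26 (adjusted p = 0.0523). At 22 h it stood at -2.11 and -2.69 in mixed and -2.18 and -1.31 in control. MET31 was the regulator with a negative difference, -0.55 ± 0.17 (adjusted p = 0.0687), from levels of -1.93 and -1.75 in mixed and -1.19 and -1.39 in control. The kinds did not overlap in either gene at 187 h.

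SAM1, the S-adenosylmethionine synthetase, had 0.02 and -0.10 in mixed, against -1.30 and -0.70 in control at 187 h. The difference was 0.96 ± 0.26 (adjusted p = 0.0481), larger on the first slide (1.32) than on the second (0.60). Its earlier levels in mixed were 2.71 and 2.35 at 22 h, 0.38 and 0.55 at 92 h and 0.39 and -0.14 at 144 h. In control they were 2.06 and 2.71, then -0.05 and 0.17, then -0.26 and -0.39. Both mixed arrays lay above both control arrays from 92 h on. The SAM2 probe differed by -0.11 ± 0.21 at 187 h.

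CYS3, the enzyme that releases cysteine, had 1.69 and 1.79 in mixed, against 0.74 and 0.89 in control at 187 h. The slides gave 0.94 and 0.90, and the difference was 0.92 ± 0.25 (adjusted p = 0.0480). Before that its levels in mixed were 3.72 and 2.98 at 22 h, 0.98 and 1.27 at 92 h and 1.42 and 1.13 at 144 h, and in control 3.33 and 3.86, then 1.07 and 1.44, then 0.95 and 1.02. The kinds overlapped at 22 h and 92 h and were apart at 144 h and 187 h.

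SAM4, the homocysteine methyltransferase, was lower in mixed: it had -1.68 and -1.94, against -0.65 and -0.87 in control at 187 h. The difference was -1.05 ± 0.17 (adjusted p = 0.0263), with -1.03 and -1.07 within the slides. At 144 h it gave -1.15 and -1.39 in mixed and -0.85 and -0.89 in control, and at 92 h -0.83 and -1.10 in mixed and -0.76 and -0.62 in control. Both mixed arrays lay below both control arrays at all 3 of these times, though SAM4 passed only at 187 h. SAM3, its neighbour on the chromosome, differed by -0.02 ± 0.15 at 187 h.

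HOM2, aspartate semialdehyde dehydrogenase, had 1.63 and 1.61 in mixed, against 2.35 and 2.14 in control at 187 h. It differed by -0.62 ± 0.17 (adjusted p = 0.0477; -0.72 and -0.53 within the slides). Its earlier levels in mixed were 3.33 and 2.99 at 22 h, 1.85 and 1.85 at 92 h and 1.81 and 1.66 at 144 h, and in control 3.16 and 3.60, then 2.01 and 2.20, then 2.01 and 2.08. From 92 h on, both mixed arrays were the lower.

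**Figure D5:**
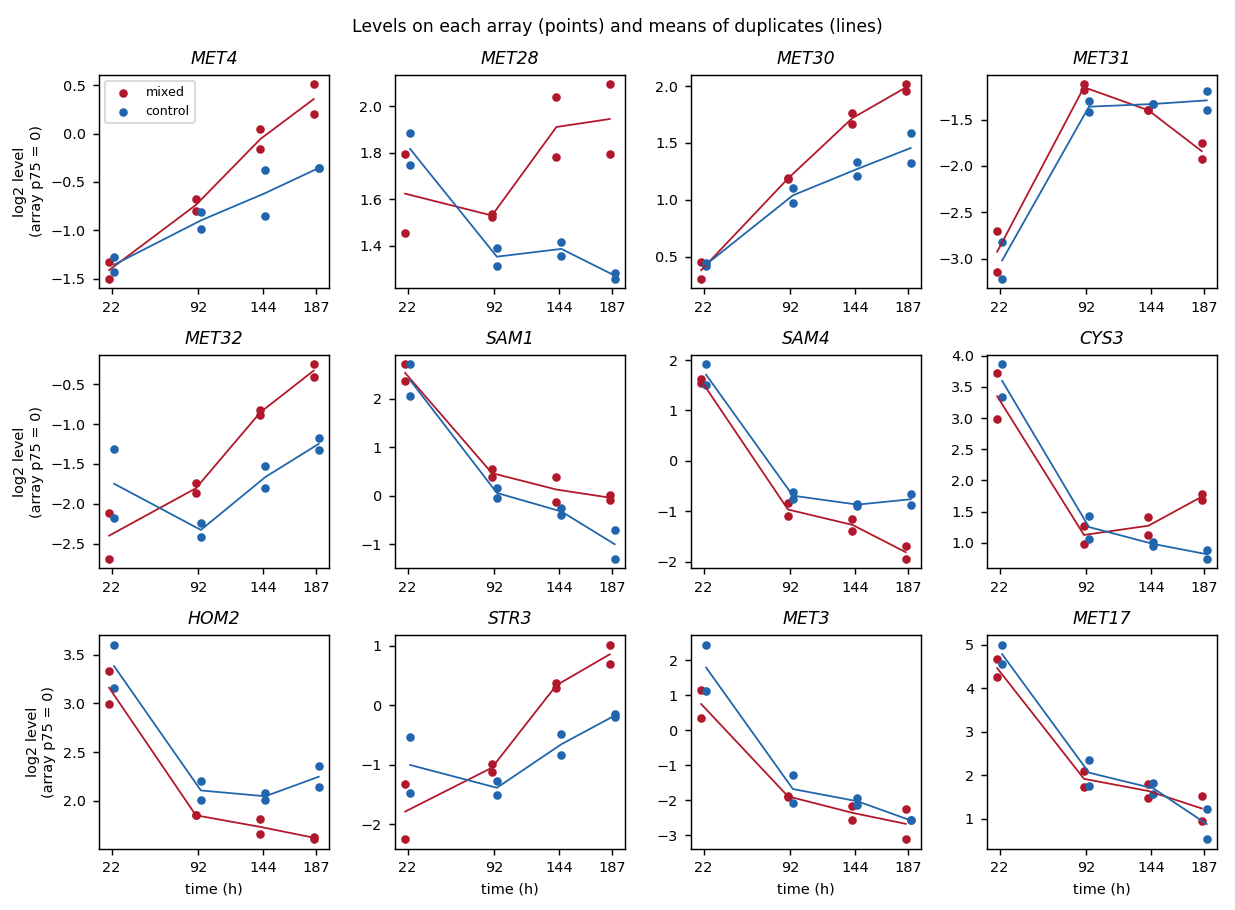
Log2 levels of 12 genes (the 5 regulators, SAM1, SAM4, CYS3, HOM2, STR3, MET3 and MET17) against time in hours; each panel has its own axis, points are arrays and lines join the means of duplicates. Mixed is red and control blue. In the panels of MET4, MET30 and MET32 the 187 h points lie above the 92 h points and the mixed points lie above the control points at 187 h, while SAM4 and HOM2 end lower in mixed.

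The other genes at 187 h missed the threshold. STR3 had 0.69 and 1.02 in mixed, against -0.20 and -0.14 in control, a difference of 1.03 ± 0.31 (adjusted p = 0.0671). MET10, a sulfite reductase subunit, had 0.72 and 0.52 in mixed, against -0.25 and -0.15 in control, a difference of 0.82 ± 0.24 (adjusted p = 0.0633). The mixed arrays of both genes were above their control arrays. The other 7 genes of sulfate reduction had differences between -0.25 and 0.42, 4 of the 8 were positive, and their median was 0.05. SUL1 and SUL2 had differences of opposite sign, -1.37 ± 0.67 and 0.57 ± 0.26, and neither passed.

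The calls at 187 h were close to the threshold and leaned on single arrays. Leaving out 1 of the 22 h arrays gave 5 to 10 called genes, and leaving out any of the 12 later arrays gave 0 to 4. The count was 0 without either control array of 92 h, without the first control array of 187 h or without the second mixed array of 187 h, 2 without either mixed array of 92 h or the second control array of 187 h, and 0 with spike-in scaling. With the slide as a block 4 were called, without SAM1, CYS3 and HOM2. The differences themselves did not change sign in any of these fits.

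Averaged over the 4 times, 4 of the 33 genes were higher and 2 were lower in mixed fermentations (8 mixed against 8 control arrays), where 3.22% of all probes were higher and 5.37% lower. SAM1 was higher by 0.49 ± 0.13 (adjusted p = 0.0397), MET4 by 0.34 ± 0.09 (adjusted p = 0.0348), MET28 by 0.30 ± 0.08 (adjusted p = 0.0370) and MET30 by 0.27 ± 0.06 (adjusted p = 0.0297). SAM4 differed by -0.46 ± 0.09 (adjusted p = 0.0167) and HOM2 by -0.35 ± 0.08 (adjusted p = 0.0311). Within the slides all 6 kept their sign. The average shares its 187 h arrays with the comparison above and is not separate evidence. The split was 5 and 1 with arrays scaled to their medians, and none of the 6 passed with spike-in scaling. Without 187 h the average called 0 of the 33 genes, and without 22 h it called 9; both averages were added after the values had been seen. With single arrays left out it called 0 without the second control array of 92 h, and 1 without either mixed array of 92 h or the second mixed or second control array of 144 h. It called 2 without the second mixed or first control array of 187 h, and 3 without the first mixed or second control array of 22 h or the first control array of 92 h. It called 1 gene, SAM4, when arrays of 1 vessel were treated as a random block.

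Around the 33 genes, 24 further genes of sulfur metabolism were looked up and 23 were tested; BDS1 was not well above background on any array. At 92 h against 22 h 14 of the 23 fell and 2 rose, with a median of -0.56, beside the 29.2% of all probes that were lower and 36.2% that were higher. At 187 h 2 were higher in mixed and 2 were lower, beside 2.81% and 4.46% of all probes. MUP1, the high-affinity methionine permease, had -1.13 and -0.87 in mixed, against -1.73 and -1.70 in control, a difference of 0.71 ± 0.19 (adjusted p = 0.0467). ADI1, an enzyme of methionine salvage, had 2.31 and 3.01 in mixed, against 1.55 and 1.42 in control, a difference of 1.18 ± 0.29 (adjusted p = 0.0401). MDE1, another enzyme of methionine salvage, differed by -0.65 ± 0.16 (adjusted p = 0.0384) and GSH2, glutathione synthetase, by -0.58 ± 0.15 (adjusted p = 0.0467). On average over the 4 times MUP1 was higher by 0.79 ± 0.09 (adjusted p = 0.00669), ADI1 by 0.70 ± 0.15 (adjusted p = 0.0230), and GSH2 differed by -0.30 ± 0.08 (adjusted p = 0.0364). MUP1 was above its control on both slides at all 4 times.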

How the data were processed

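Intensity values had been extracted from 16 one-colour arrays by the authors with Feature Extraction 10.7.3.1, per the file headers, as background-corrected signals with 2 spots per probe. Spots marked as outliers (50) were dropped, the log2 intensity of the spots was averaged, and each array was scaled to its 75th percentile. Probes well above background on at least 2 arrays were kept (6184, with 72 removed). limma 3.58.1 in R 4.3.3 fitted 1 mean per group, with 8 residual degrees of freedom and 3.26 added by the prior. Adjustment was by Benjamini-Hochberg over the 6184 probes of each comparison, with a threshold of 0.05. Figures used Python 3.11.15 and matplotlib 3.10.9. The deposited log2 table of the authors lay, on every array, within 0.05 of log2 intensity plus a constant for at least 99.58% of probes, and served as an alternative for comparisons within a time. Its scaling was not given in the sources used here.

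The 33 genes, their roles and the other sulfur genes were chosen with earlier results of these data known. Values on all arrays are given for genes called between mixed and control and for up to 3 genes per direction at each time step; all regulators are described. The labels say that fermentations were duplicated but not whether 1 vessel was sampled at the 4 times. If it was, p-values between kinds averaged over times are too small. A table of gene names matched 5756 of 6256 probe identifiers. Promoter motifs were not analysed here.

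Replicate numbers coincide with slides. Deviations of same-numbered mixed and control arrays correlated at -0.47, 0.25, 0.25 and 0.11 at 22 h, 92 h, 144 h and 187 h, so the numbers were not taken to pair samples. The number of arrays limits the precision.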

Additional observations from a re-analysis of the deposited data

How the results depend on the processing

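Results were recomputed with other scalings (array medians, quantiles, spike-in probes), normexp, the deposited table, other probe filters, the slide as a replicate block, the vessel as a random block, the compared times fitted alone, and each array left out in turn. None of the 33 genes was called between the kinds at 22 h, 92 h or 144 h under any of these. None was called by the F test under those run for it, which left out the deposited table and the compared times alone. At 187 h the count of 7 became 0 with spike-in scaling, 2 with normexp on the median signals, and 0 when only the 187 h arrays were fitted, a fit with fewer samples. It ranged from 0 to 10 with 1 array left out, where the lone array of a group is assumed to vary like the other groups. The average over times gave 1 with spike-in scaling, 1 with the vessel as a block and 0 without 187 h, and 0 to 8 with 1 array left out. The step at 92 h gave 25 to 29 with 1 array left out and 26 to 30 under the other alternatives. The step at 144 h gave 0 with spike-in scaling and 0 to 5 with 1 array left out. The step at 187 h gave 0 with spike-in scaling, 4 with normexp, 0 with the compared times alone, and 0 to 4 with 1 array left out. The sign turned for MET30 (-0.45) and MET4 (-0.59) at 92 h against 22 h with spike-in scaling. Except for spike-in scaling at 92 h against 22 h, the share of all probes called in each alternative is not given here. Whether a change in count was particular to these genes was therefore not tested. Where no cause is named, the cause was not tested.

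With the replicate block, which holds the slide, 3 genes were higher and 1 lower at 187 h, so the count was 4; SAM1, CYS3 and HOM2 were lost. The shared number is not a pairing given by the labels.

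The split of higher and lower calls at 187 h was 6 and 1 with the median of each array, 7 and 1 in the deposited table and 1 and 1 with normexp, in place of 5 and 2. On average it was 5 and 1 with the median of each array, in place of 4 and 2. At 92 h against 22 h it was 0 and 30 with spike-in scaling, in place of 3 and 25. Of 667 values for 24 gene results, 475 kept direction and call, 190 kept only the direction and 2 changed sign. SUL1, the dimmest probe, limits what can be said of sulfate uptake.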
